A study of Mus musculus with 4 samples.

Results

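The 10 genes described here encode the FOS and JUN proteins that form the transcription factor AP-1 (Fos, Fosb, Fosl1, Fosl2, Jun, Junb and Jund) and 3 further factors of the stress response (Atf3, Egr1 and Klf4). They were chosen by name, as genes known to be raised by injury or by the dissociation of a tissue, from 21887 protein-coding genes. The choice was made with earlier results of these data known, so the comparisons with all coding genes below are not blind. Each locus was taken as the gene body with 50 kb on each side, and every ATAC-seq peak that touched it was counted. The study profiled open chromatin in hair follicle stem cells that were sorted from mice as Ly-6A/E-, CD34+ and positive for a marker the labels write as CD45f. The labels name 2 Irx5KO samples and 2 WT samples, and for each genotype 1 peak list pooled from its 2 samples was used. Irx5 encodes an Iroquois homeodomain factor. The labels used here state neither the knockout allele nor the strain, age and sex of the mice, and do not say whether the deletion is limited to a cell type. With 1 pooled list for each genotype there is no spread between replicates, so every difference below is a difference between 2 lists without a test.

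FOS and JUN proteins are basic leucine zipper factors that pair through their zippers and bind DNA as dimers. JUN proteins can pair with each other, whereas FOS proteins need a JUN partner. Most of these genes belong to the immediate early genes, whose transcription starts within minutes of growth factors, stress or wounding and needs no new protein. In skin, AP-1 takes part in keratinocyte proliferation, differentiation and wound repair, and enzymatic dissociation before cell sorting is itself known to induce several of these genes. In ATAC-seq a transposase cuts accessible DNA, so a peak marks open chromatin and not the RNA of the gene. In a bulk sample, a region open in fewer cells and a region less open in each cell cannot be told apart.

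Over the whole genome, 105910 of 484992 Irx5KO peaks (21.84%) met no WT peak, and 132587 of 498061 WT peaks (26.62%) met no Irx5KO peak. A peak with at least 1 bp of overlap with the other list is called shared here, and the others are called genotype-only. The genotype-only peaks stood low in their own lists by the authors' score, at a median percentile of 15.52 in Irx5KO and 17.95 in WT, against 60.22 and 62.63 for shared peaks. The study's text states 80000000 reads per sample, and the read depth that entered each list is not in the lists. A difference in depth or data quality between the pooled libraries and a difference between the genotypes cannot be told apart. Each of the 10 hair follicle stem cell markers that were checked, among them Cd34, Krt15, Lhx2 and Sox9, carried a peak within 1 kb of a gene end in both lists. Of all coding genes, 75.2% did so, and some markers of other cell types did too, as given further below.

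The sequences before the starts of 5 genes are shown: Fos, Jun, Atf3 and Klf4, whose windows hold the motif matches described below and lie within shared peaks of both lists, and Jund, for contrast, as its outermost annotated start lay outside every peak. RefSeq windows (GRCm38.p6, the same assembly as mm10) were found for 8 of the 10 members. Each line below gives the 250 bases before the annotated start, read 5′ to 3′ on the gene's own strand, and capitals mark the motif matches described after them. Fos lies at chr12:85473640-85473889 (plus strand), Jun at chr4:95052223-95052472 (minus strand), Atf3 at chr1:191183334-191183583 (minus strand), Klf4 at chr4:55532476-55532725 (minus strand) and Jund at chr8:70697489-70697738 (plus strand).
Fos: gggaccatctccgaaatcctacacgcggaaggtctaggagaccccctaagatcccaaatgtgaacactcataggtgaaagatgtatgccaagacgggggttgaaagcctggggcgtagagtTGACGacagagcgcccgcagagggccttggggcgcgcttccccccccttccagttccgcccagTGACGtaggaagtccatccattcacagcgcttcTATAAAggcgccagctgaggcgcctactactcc
Jun: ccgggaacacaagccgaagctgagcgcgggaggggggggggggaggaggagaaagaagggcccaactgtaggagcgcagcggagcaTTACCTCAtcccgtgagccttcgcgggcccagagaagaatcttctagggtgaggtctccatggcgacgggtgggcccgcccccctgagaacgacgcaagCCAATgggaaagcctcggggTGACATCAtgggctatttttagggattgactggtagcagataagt
Atf3: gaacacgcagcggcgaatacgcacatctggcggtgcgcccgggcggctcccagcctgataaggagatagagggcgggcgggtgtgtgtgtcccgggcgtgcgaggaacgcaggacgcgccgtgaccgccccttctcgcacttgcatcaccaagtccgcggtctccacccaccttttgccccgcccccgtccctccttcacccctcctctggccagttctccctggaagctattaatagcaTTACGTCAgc
Klf4: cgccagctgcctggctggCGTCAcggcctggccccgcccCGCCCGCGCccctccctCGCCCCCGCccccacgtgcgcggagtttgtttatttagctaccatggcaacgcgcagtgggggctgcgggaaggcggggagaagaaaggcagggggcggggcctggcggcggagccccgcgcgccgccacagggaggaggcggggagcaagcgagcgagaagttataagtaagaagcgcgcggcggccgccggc
Jund: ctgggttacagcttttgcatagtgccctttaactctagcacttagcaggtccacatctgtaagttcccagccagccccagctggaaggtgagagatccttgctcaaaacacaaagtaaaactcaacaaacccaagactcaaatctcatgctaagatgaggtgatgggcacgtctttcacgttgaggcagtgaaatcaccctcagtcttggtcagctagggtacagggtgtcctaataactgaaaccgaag

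Both strands of the 8 windows were searched for the AP-1 site (TGANTCA), the cAMP response element CRE (TGACGTCA), the EGR site (GCGNGGGCG), the CArG box bound by serum response factor, the TATA box (TATAAA) and CCAAT. No window matched the AP-1 site, the CRE or the CArG box in these letters, which 6.75%, 1.55% and 1.47% of all 32851 RefSeq windows of this length hold. The EGR site was found in Klf4, with 2 matches on the opposite strand, and in Fosb and Fosl2 with 1 match each, against 4.7% of all windows. Fos held a TATA box 33 bases before its start (12.4% of all windows), and Jun and Junb held CCAAT (33.8%). Further motifs were added after the sequences had been seen. The Jun window held TGACATCA 45 bases before the start and TTACCTCA 164 bases before it, the letters of the jun1 and jun2 elements through which JUN and ATF proteins are known to act on Jun. These are held by 2.93% and 0.728% of all windows. The Atf3 window ended with TTACGTCA, the letters of an ATF/CRE element, from 10 bases before the start (0.447% of all windows). The CRE half-site TGACG, which lies within the CRE and, read on the opposite strand, within TTACGTCA, was matched in Fos (2 matches), Fosb, Junb, Atf3 and Klf4, against 17.8% of all windows. A match describes the letters only and is no evidence that a factor binds there.

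The Klf4 window had the highest GC content of the 8 at 74% with 32 CpG dinucleotides, and the Jund window the lowest at 47.6% with 3. The other windows lay between 58.4% (Fos) and 68.8% (Fosb) with 15 to 24 CpG. Over all windows the median was 52.4% GC and 6 CpG. Peaks of both lists covered the whole window at Fos, Fosb, Jun, Junb, Atf3 and Klf4, 6 of the 8, and this held for 38.7% of the 17492 coding genes with a window. At Fosl2, Irx5KO peaks covered 191 of the 250 bases, and WT peaks covered 101. At Jund neither list covered any base.

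All 10 genes were open at a gene end in both genotypes. A peak within 1 kb of either gene end was present in both lists for 10 of 10 members, against 75.2% of all coding genes. No member had such a peak in Irx5KO only (6.07% of all coding genes) or in WT only (3.99%). Among the upper 50% of each list by score, 8 members had a gene-end peak in both lists (40.1% of coding genes). Fosb and Fosl1 had one there in the Irx5KO list only (11.8% of coding genes). The Fosb start peak stood at percentile 49.92 of the WT list, just under the threshold, and the Fosl1 peak at 44.67. Percentiles describe a peak within its own list and, because the lists differ in length, show no change between genotypes.

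At the 8 genes with an annotated start, the best-scored peak within 1 kb of it had a median width of 1470 bp in Irx5KO and 1180 bp in WT. Over the 12456 genes with such a peak in both lists these medians were 980 and 800 bp, so the members' median was the larger in both lists, although the Fosb peak in Irx5KO (900 bp) was below the median of all genes. The Irx5KO peak was the wider at 6 of 8 genes, near the 66.8% of all genes with a wider Irx5KO start peak. The summits, the points of highest signal as deposited, lay a median of 35 bp apart between the lists, against 60 bp over all genes. The start peaks stood at a median percentile of 80.8 in Irx5KO and 67.5 in WT, against 63.5 and 52 over all genes.

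**Figure D1:**
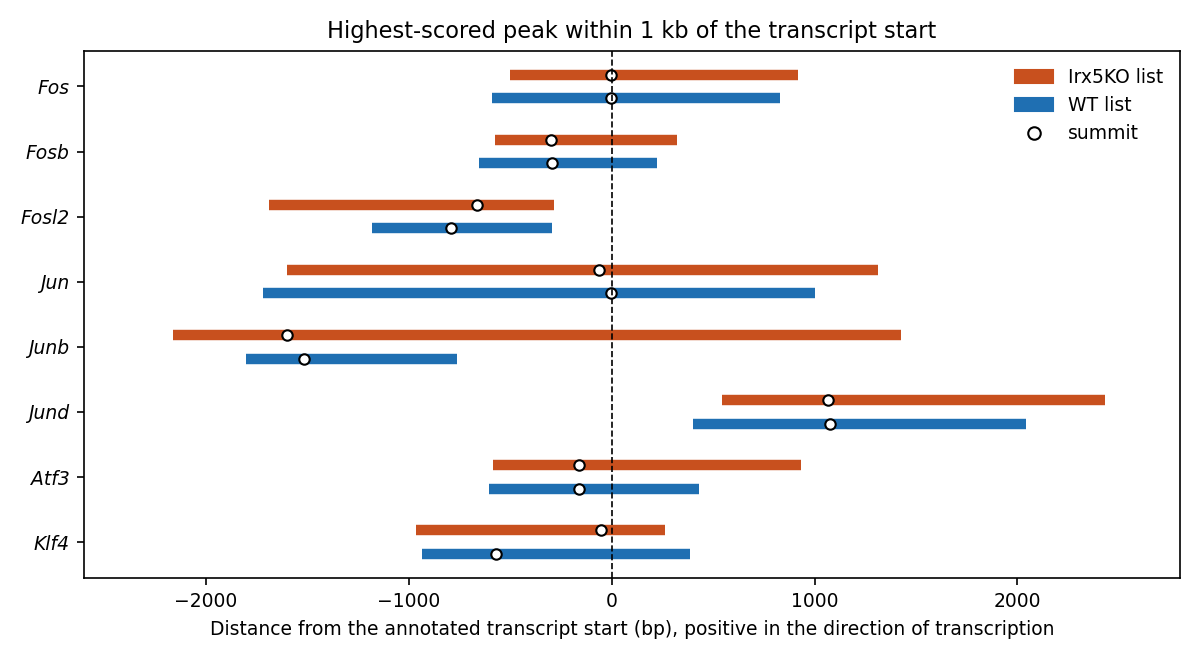
Best-scored peak within 1 kb of the annotated start of 8 genes, drawn as a bar from its left to its right border against the distance from the start in bp (transcription runs to the right), with the summit as a point, for the Irx5KO and WT lists. The Fos summits coincide 4 bp before the start in both lists, and the Jund peaks lie wholly past the start, with summits 1067 and 1077 bp into the gene.

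Fos (chr12:85473890-85477274, plus strand) encodes the founding FOS protein and is the classic immediate early gene of cultured cells. Its start peak was 1420 bp wide in both lists, at 85473391 to 85474810 in Irx5KO and 85473301 to 85474720 in WT, with the summit 4 bp before the start in each. The locus held 23 peaks in Irx5KO, 7 of them Irx5KO-only, and 20 in WT, 2 of them WT-only. Past the start peak, 3 Irx5KO-only peaks touched the gene or its 1 kb flank (85474861 to 85475110, 85477741 to 85478100 and 85478191 to 85478500). All 3 were 250 to 360 bp wide and none stood above percentile 17.61 of the Irx5KO list. The gene's only WT-only peak there, at 85476881 to 85477080, stood at percentile 5.241 of the WT list. No other coding gene lies in this window.

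Fosb (chr7:19302696-19310118, minus strand) encodes a FOS protein known from neurons, bone and keratinocytes, and its locus had similar numbers in both genotypes. There were 29 Irx5KO peaks with 9 Irx5KO-only and 30 WT peaks with 7 WT-only. The start peak measured 900 bp in Irx5KO and 880 bp in WT, with summits 301 and 296 bp before the start. The highest-scored peak of the locus lay inside the neighbouring DNA repair gene Ercc1, at 19351121 to 19351610 in Irx5KO and 19351131 to 19351620 in WT, at percentile 98.91 and 98.53. With 7 other coding genes in the window, peaks of this locus cannot be assigned to Fosb.

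Fosl1 (chr19:5447698-5455938) encodes FRA1, a FOS protein associated with cell migration and invasion, and was the exception among the 10 loci. It held 16 Irx5KO peaks with 3 Irx5KO-only and 19 WT peaks with 5 WT-only, the only locus with more WT-only peaks. The excess lay away from the gene: 2 Irx5KO-only and 1 WT-only peaks lay within 10 kb, and 1 and 4 beyond. The peak at its lower-coordinate end was 760 bp wide in Irx5KO and 610 bp in WT. This is the most crowded window, with 11 other coding genes.

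Fosl2 (chr5:32136472-32157840, plus strand) encodes FRA2, a FOS protein with roles in skin, bone and cartilage. It held 22 Irx5KO peaks with 9 Irx5KO-only and 18 WT peaks with 4 WT-only. Of the Irx5KO-only peaks, 5 lay within 10 kb of the gene, and 3 of them touched the gene or its 1 kb flank. Its best start peak lay upstream of the start in both lists, at 32134781 to 32136190 for Irx5KO and 32135291 to 32136180 for WT. The start itself fell in a second, lower-scored peak, at percentile 19.6 of the Irx5KO list and 9.373 of the WT list. The highest peak of the locus stood near the top of both lists: 32165781 to 32167760 in Irx5KO (percentile 99.2) and 32165751 to 32167780 in WT (percentile 99.27). It lay 7.94 and 7.91 kb past the gene, and no other coding gene lies in the window.

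**Figure D2:**
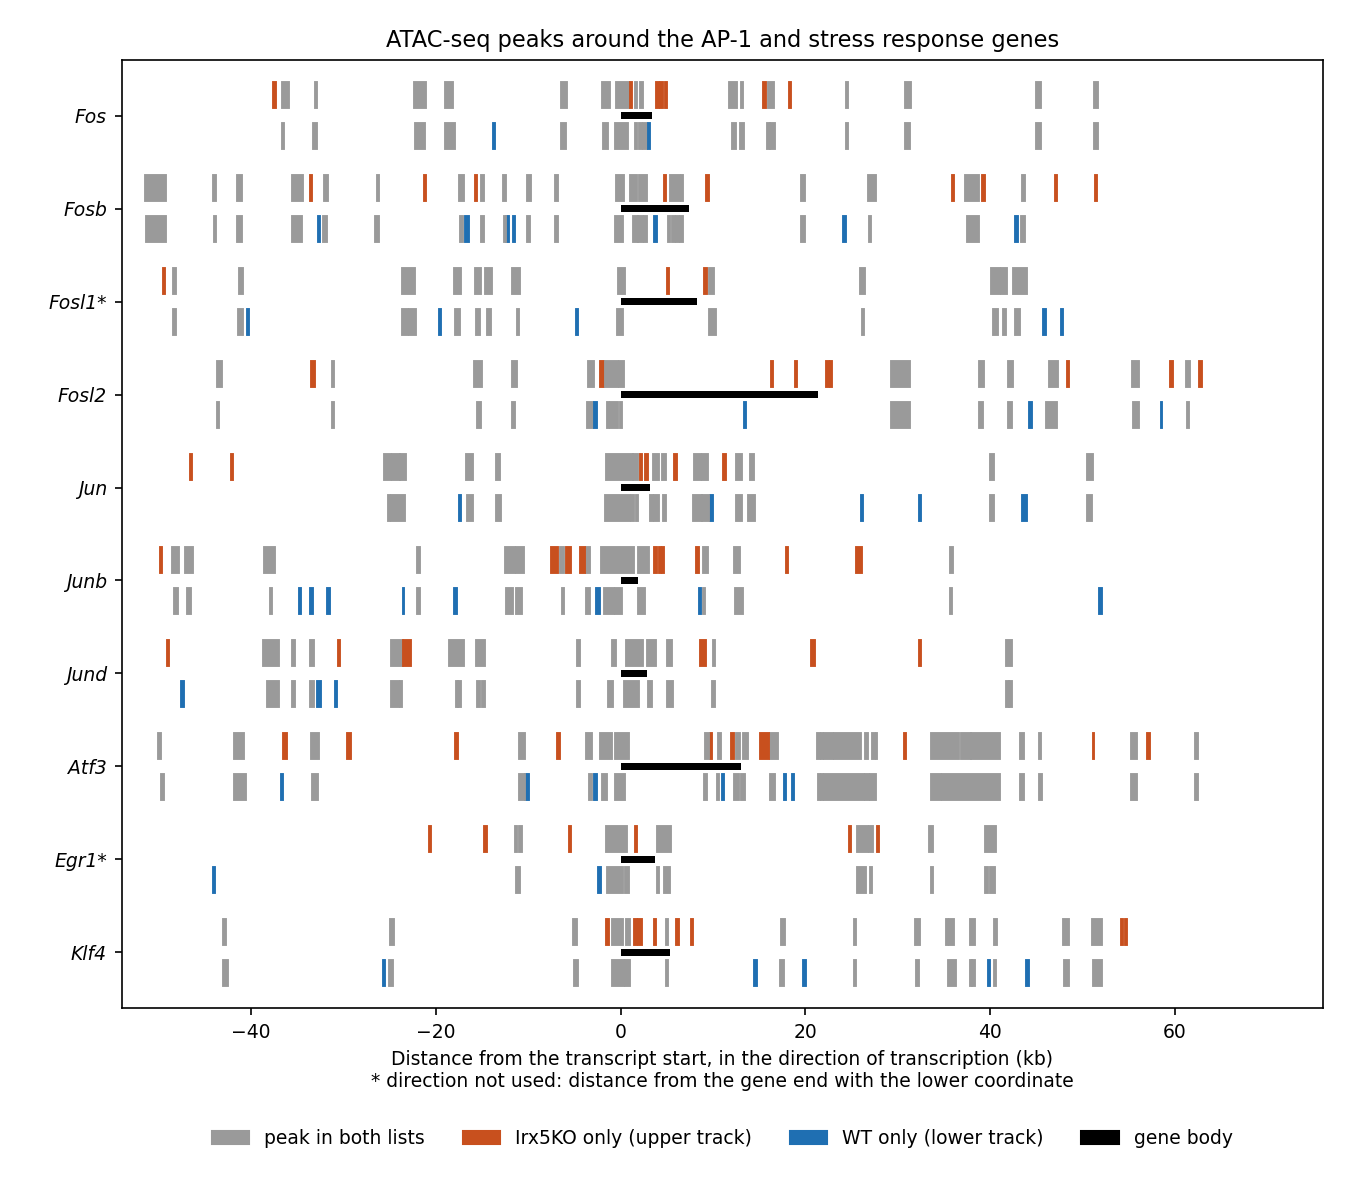
Peaks of the Irx5KO and WT lists at the 10 loci against the distance from the annotated start in kb (for genes marked with an asterisk, from the lower-coordinate gene end), with Irx5KO above and WT below the gene body (black bar), each peak at its own extent plus a thin outline, shared peaks grey, Irx5KO-only orange and WT-only blue. Orange marks lie inside or within 1 kb of 8 of the 10 genes (not Junb and Jund), and 4 of the 5 blue marks of Klf4 lie past the gene.

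Jun (chr4:95049036-95052222, minus strand) encodes the main partner of FOS and had equal totals in the lists, 21 peaks each, with 6 Irx5KO-only and 5 WT-only. Its start peak, 2910 bp wide in Irx5KO and 2720 bp in WT, was the widest of the 8 in WT, and the printed window with both jun elements lies within it in both lists. The summits lay 64 and 4 bp before the start. The genotype-only peaks lay in different places. Of the Irx5KO-only peaks, 4 lay within 10 kb, among them 95049231 to 95049570 and 95049931 to 95050170 inside the gene. Of the WT-only peaks, 4 lay farther away and 1 lay 6.53 kb past the gene (95042191 to 95042510, percentile 59.45 of the WT list).

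Junb (chr8:84976909-84978748, minus strand) encodes a JUN protein known to restrain proliferation and, in the epidermis, inflammation. It had the largest number of Irx5KO-only peaks, 10 of 23, level with Atf3 at 10 of 36, and 8 WT-only peaks of 22. Within 10 kb the numbers were 7 and 2, and beyond 10 kb 3 and 6. In Irx5KO a 3590 bp peak (84977321 to 84980910) ran over the start, where WT had 2 peaks, 730 bp at the start (84978581 to 84979310) and 1040 bp upstream (84979511 to 84980550). The main summits stood 1598 and 1518 bp before the start. None of the genotype-only peaks touched the gene or its 1 kb flank. Instead 4 Irx5KO-only peaks lay at the ends of the neighbours Prdx2 and Rnaseh2a, and others lay within Rtbdn, Rnaseh2a and Trir. Of the WT-only peaks, 5 lay within Mast1, Hook2 and Best2, and another lay at an end of Best2 (85013341 to 85013550). The places were not separate, as a WT-only peak (84970051 to 84970250) also lay at the ends of Prdx2 and Rnaseh2a. Further Irx5KO-only peaks lay between genes, 3.9, 5.34 and 6.8 kb upstream of Junb.

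Jund (chr8:70697739-70700616, plus strand) encodes the JUN protein that is expressed most steadily in resting cells. It held 19 Irx5KO peaks with 6 Irx5KO-only and 20 WT peaks with 3 WT-only. No peak of either list held the annotated start used here, the outermost of the gene, whose printed window has 3 CpG and no motif match. Starts farther into the gene were not examined. The best peak spanned 70698281 to 70700170 (1890 bp) for Irx5KO and 70698141 to 70699780 (1640 bp) for WT, with summits 1067 and 1077 bp past the start. The Irx5KO-only peaks with the highest scores among those of all 10 loci lay here, in the neighbour Iqcn (70706321 to 70706990, percentile 49.09) and at the ends of Gm3336 and Iqcn (70718321 to 70718810, percentile 47.69). No genotype-only peak touched Jund or its 1 kb flank.

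Atf3 (chr1:191170296-191183333, minus strand) encodes a stress-induced partner of JUN that often represses its targets. It had the most peaks of the 10 loci, 36 in Irx5KO with 10 Irx5KO-only and 29 in WT with 6 WT-only. Its start peak was 1520 bp wide in Irx5KO and 1040 bp in WT, and both summits stood 163 bp before the start. Within 10 kb it was the exception, with 4 Irx5KO-only and 5 WT-only peaks. Beyond 10 kb there were 6 Irx5KO-only peaks and 1 WT-only peak. A peak with the same borders in both lists, 191120911 to 191121190, stood at percentile 99.94 of the Irx5KO list and 99.93 of the WT list, 49.1 kb past the gene. The widest Irx5KO-only peak of the locus, 960 bp at 191167251 to 191168210, lay 2.09 kb past the gene.

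Egr1 (chr18:34861207-34864956) encodes a zinc finger factor that serum response factor is known to induce within minutes. It had the fewest peaks, 14 in Irx5KO with 6 Irx5KO-only and 12 in WT with 2 WT-only. The peak at its lower-coordinate end was 2260 bp wide in Irx5KO and 1690 bp in WT. Inside the gene lay 1 Irx5KO-only peak, 34862721 to 34863030, at percentile 5.535.

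Klf4 (chr4:55527137-55532475, minus strand) encodes a zinc finger factor needed for the barrier of the epidermis. It held 23 Irx5KO peaks with 8 Irx5KO-only and 20 WT peaks with 5 WT-only. The 2 kinds of peak lay in different places and at different heights. Of the 8 Irx5KO-only peaks, 3 lay in the gene body and 1 at its gene end, and 6 in all lay within 10 kb. Of the 5 WT-only peaks, 4 lay 9.12, 14.4, 34.5 and 38.5 kb past the gene, at percentile 63.37, 67.22, 59.14 and 53.24 of the WT list. These 4 were more than any other locus had among the 7 WT-only peaks in the upper 50% of the WT list, ahead of Jun with 2 and Junb with 1. The start peak was 1230 bp wide in Irx5KO and 1320 bp in WT, the only one of the 8 that was wider in WT. Its summits lay 51 and 571 bp before the start, 520 bp apart, the largest gap of the 8. Upstream, the highest peak of the locus had its summit 24.8 kb before the start, at 55557041 to 55557470 in Irx5KO and 55557051 to 55557480 in WT.

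Together the 10 loci held 226 Irx5KO peaks, of which 74 (32.7%) were Irx5KO-only, and 211 WT peaks, of which 47 (22.3%) were WT-only. Over the loci of all coding genes these shares were 24.4% and 25.3%. Of the 121 genotype-only peaks at the 10 loci, 61.16% were Irx5KO-only (Wilson 95% interval 52.26% to 69.37%, for counting error only), against 49.33% over the loci of all coding genes. The FOS family had 28 Irx5KO-only and 18 WT-only peaks, the JUN family 22 and 16, and Atf3, Egr1 and Klf4 together 24 and 13, so each family leaned the same way. The Wilson interval of each family's share included 50%. Irx5KO-only peaks outnumbered WT-only peaks at 9 of 10 loci, against 46.6% of all coding genes. Summed peak width was larger in Irx5KO at 10 of 10 loci, with the largest gap at Junb (16.06 and 9.65 kb) and the smallest at Jun (13.22 and 12.85 kb), against 58.3% of coding genes. The 4 loci without another coding gene in the window (Fos, Fosl2, Jun and Klf4) held 30 and 16 genotype-only peaks, and the other 6 held 44 and 31.

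**Figure D3:**
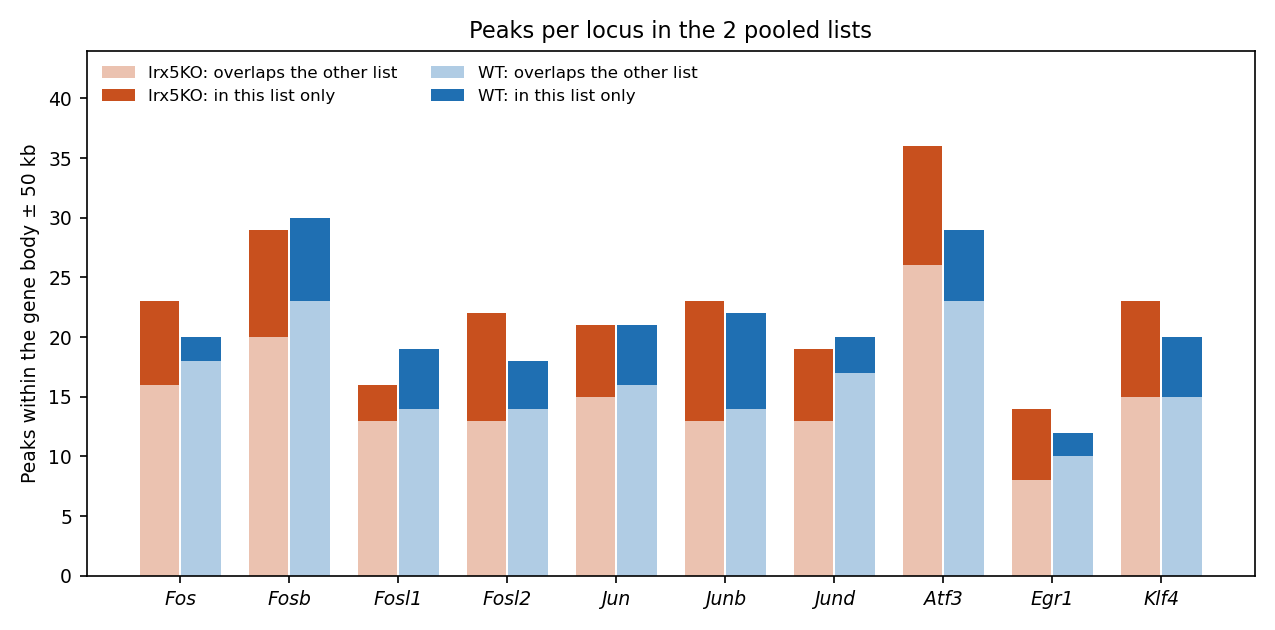
Number of peaks within the gene body and 50 kb on each side for each gene, in the Irx5KO list (orange) and the WT list (blue), with peaks that overlap the other list light and genotype-only peaks dark. The dark part is taller in Irx5KO at every gene except Fosl1.

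These peaks were mostly low. Of the 74 Irx5KO-only peaks, 0 stood in the upper 50% of the Irx5KO list, with a median percentile of 13.51 and a highest of 49.09. Of the 47 WT-only peaks, 7 stood in the upper 50% of the WT list, with a median percentile of 27.01 and a highest of 67.22. Over the whole lists the medians were 15.52 for Irx5KO-only and 17.95 for WT-only peaks, so the WT-only median was the one farther from its whole list. The share of all genotype-only peaks that stand in the upper 50% is not given. Counted in the upper 50% of each list against the whole other list, the direction thus turned, to 0 Irx5KO-only and 7 WT-only peaks. Over all coding genes 45.22% were Irx5KO-only under this filter. With both lists limited to their upper 50%, there were 18 and 12, or 60% Irx5KO-only (42.32% to 75.41%), an interval that includes the 47.61% over all coding genes. Genotype-only peaks were narrow, with a median width of 280 bp (Irx5KO) and 270 bp (WT), against 600 and 435 bp for shared peaks. Where peaks met, 19 Irx5KO peaks overlapped 2 or more WT peaks, and 8 WT peaks overlapped 2 or more Irx5KO peaks. The same counts over the whole lists are not given, so whether this difference is particular to the 10 loci was not tested. After overlapping peaks of both lists were merged, the 10 loci held 264 regions, of which 143 were in both lists, 74 in Irx5KO only and 47 in WT only. The last 2 numbers equal the counts of genotype-only peaks by construction.

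**Figure D4:**
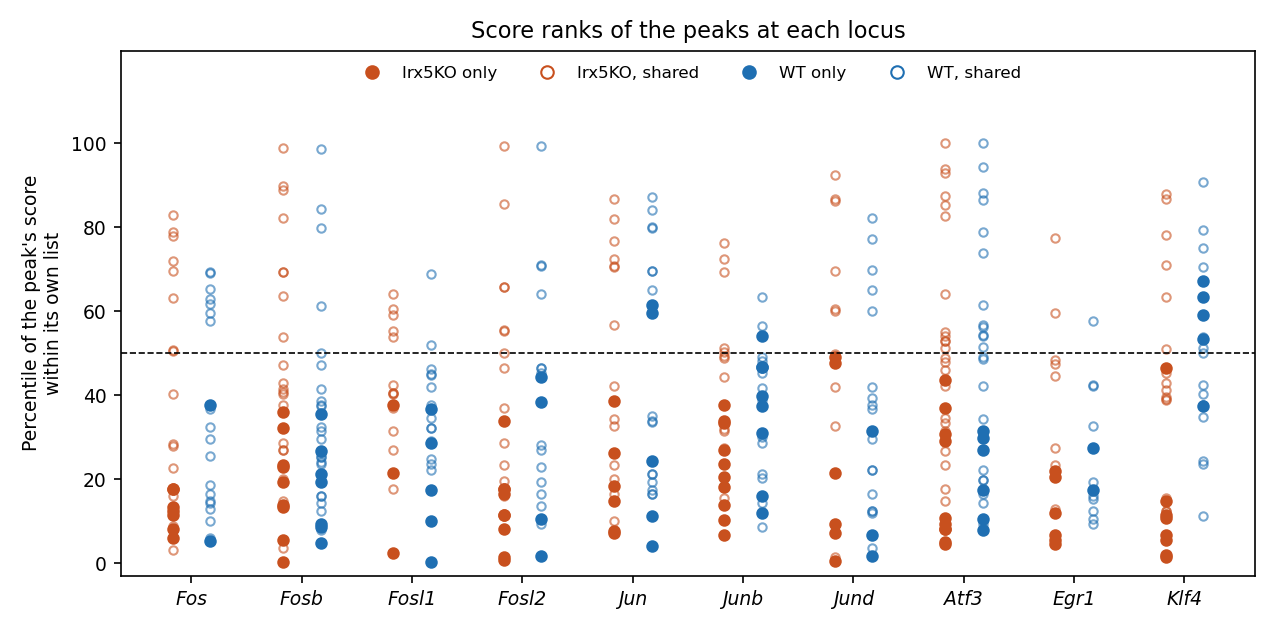
Percentile of each peak by score within its own list, for every locus, with Irx5KO (orange) and WT (blue) side by side, shared peaks as open and genotype-only peaks as filled points. All 74 Irx5KO-only peaks lie below the 50 line, and 7 WT-only peaks, 4 of them at Klf4, lie above it.

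A locus was called richer in a genotype when it had at least 2 times as many genotype-only peaks of that list and at least 5 more. By this rule Fos (7 and 2) and Fosl2 (9 and 4) were richer in Irx5KO, 2 of 10 against 12.9% of all coding genes. No member was richer in WT, against 11.1%. The share of members is near the background. At both loci the difference was 5 peaks, the least that the rule takes.

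The excess of Irx5KO-only peaks was uneven with distance from the genes. Within 10 kb of the 10 genes there were 37 Irx5KO-only and 15 WT-only peaks, of which 71.15% were Irx5KO-only (57.73% to 81.67%), against 49.04% over all coding genes. At this distance 9 of 10 members had more Irx5KO-only peaks (Atf3 did not), against 40.3% of coding genes. From 10 to 50 kb there were 37 and 32, or 53.62% (41.98% to 64.89%) against 49.57%. There 4 members (Fosl1, Jun, Junb and Klf4) had more WT-only peaks, against 41% of coding genes. From 50 to 100 kb, a range added after these counts were seen, there were 40 and 23, or 63.49% (51.15% to 74.28%) against 49.25%, so the excess was present again far from the genes. The difference between distances was not tested. In the genes and their 1 kb flanks, also added then, there were 18 Irx5KO-only and 4 WT-only peaks, with the larger numbers at Klf4 (4 and 0), Fos (3 and 1), Fosl2 (3 and 1), Fosl1 (2 and 0), Jun (2 and 0) and Atf3 (2 and 1). At this distance 7 members had more Irx5KO-only peaks, 3 had equal numbers (Fosb with 1 each, Junb and Jund with 0) and 0 had fewer, against 32.4% of coding genes with more. Over all coding genes 48.5% of genotype-only peaks at this distance were Irx5KO-only. The interval for the members, 61.48% to 92.69% around 81.82%, is wide because it rests on 22 peaks.

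**Figure D5:**
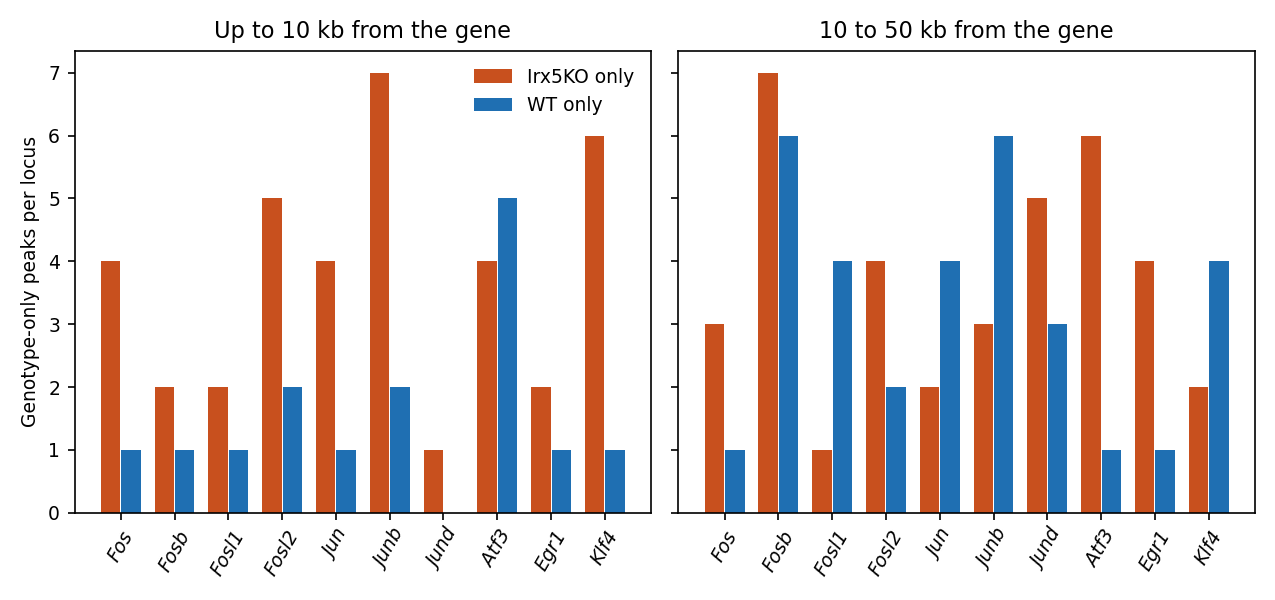
Number of genotype-only peaks at each of the 10 genes within 10 kb and from 10 to 50 kb, with Irx5KO-only peaks in orange and WT-only peaks in blue. Within 10 kb the Irx5KO number is the larger at every gene except Atf3, whereas from 10 to 50 kb the order turns at Fosl1, Jun, Junb and Klf4.

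The highest-scored peaks were mostly common to both genotypes. At 7 of 10 loci (Fosb, Fosl1, Fosl2, Junb, Atf3, Egr1 and Klf4) the highest peak of the Irx5KO list overlapped the highest of the WT list. The share of all coding genes with such an overlap is not given. Whether 7 of 10 is high or low for coding genes was therefore not tested. At Fos, Jun and Jund different peaks ranked highest, and each of them was shared between the lists. At Jun the start peak ranked highest in Irx5KO, whereas in WT a peak 5.65 kb past the gene did (95042691 to 95043390, percentile 87.22).

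Other genes of the pathway were counted from lists named for their function, also chosen with earlier results of these data known. Of 34 partners and regulators of AP-1, such as MAF and ATF proteins and the MAP kinases that phosphorylate JUN, 31 had a gene-end peak in both lists (75.2% of all coding genes do). Mafg, a small MAF protein, had one in Irx5KO only (6.07% of all coding genes do), and 2 had none. The 34 loci held 194 Irx5KO-only and 159 WT-only peaks, or 54.96% (49.74% to 60.07%), against 49.33% over all coding genes. More Irx5KO-only peaks were found at 19 loci, against 46.6% of coding genes, more WT-only peaks at 9 and equal numbers at 6. Richer in Irx5KO were 3 of 34, Mafg (9 and 0), Mafk (7 and 2) and Mapk9 (8 and 3), and richer in WT was Srf (2 and 9), the serum response factor gene. Both shares are at or below the backgrounds of 12.9% and 11.1%.

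Of 33 other immediate early and stress response genes, 32 carried gene-end peaks in each list and Egr3 had one in Irx5KO only. Over all coding genes these shares were 75.2% and 6.07%. Their loci held 200 Irx5KO-only and 130 WT-only peaks, or 60.61% (55.24% to 65.73%), against 49.33% over all coding genes. More Irx5KO-only peaks were found at 21 loci, against 46.6% of coding genes, and more WT-only peaks at 8. Richer in Irx5KO were 9 of 33, against 12.9%. They included Ier2 (13 and 4), Egr3 (10 and 1), Btg2 (11 and 1), Ccn1 (6 and 1), Ccn2 (8 and 2), Zfp36 (6 and 1), Ier3 (8 and 2) and Dnajb1 (10 and 3). Richer in WT were 2, against 11.1%, the antiproliferative gene Btg1 (3 and 9) and Klf9 (2 and 10), a target of glucocorticoids. The excess of Irx5KO-only peaks in this list did not hold among high peaks. In the upper 50% of each list, set against the whole other list, there were 21 Irx5KO-only and 25 WT-only peaks. That is 45.65% Irx5KO-only (32.15% to 59.82%), near the 45.22% over all coding genes under this filter. The neighbours Hspa1a and Hspa1b share most of their windows (4 and 1 at each), and Maff and Atf4 stand in both pathway lists.

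The same counts were made at marker genes of cell types. Of the 10 hair follicle stem cell markers, 9 had more Irx5KO-only than WT-only peaks (46.6% of coding genes do) and 5 were richer in Irx5KO (12.9%). More Irx5KO-only and more WT-only peaks were found at 4 and 1 of 6 immune markers, 2 and 1 of 4 fibroblast markers and 1 and 2 of 4 endothelial markers. For 4 melanocyte markers these numbers were 3 and 0, and for 4 markers of the interfollicular epidermis and upper follicle 3 and 1. Loci richer in Irx5KO were also found among these other markers: 1 immune, 1 endothelial and 2 melanocyte markers. Richer in WT were 1 immune and 1 fibroblast marker (11.1% of coding genes are). A gene-end peak was in both lists for 75.2% of all coding genes, in Irx5KO only for 6.07% and in WT only for 3.99%. Among 6 immune markers, a gene-end peak was in both lists for 2 (Cd8a and Itgam), in WT only for Ptprc and Cd74, and in neither for Cd3e and Cd207. For fibroblasts 3 of 4 had one in both lists and Pdgfra in Irx5KO only. For endothelium 2 of 4 had one in both, Cdh5 in WT only and Pecam1 in neither. For melanocytes 2 of 4 had one in both and Tyr and Mlana in WT only. For the interfollicular epidermis and upper follicle, Ly6a had one in both, and Krt1, Krt10 and Krt79 in Irx5KO only. The part of other cells in the counts at the 10 loci was not tested.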

How the data were processed

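Open chromatin of sorted mouse hair follicle stem cells was measured by ATAC-seq in 2 Irx5KO and 2 WT samples. Per the labels, the deposited files are 1 peak list for each genotype, pooled over its 2 samples. The submitters' processing notes name FastQC, cutadapt 2.9, Bowtie2, Genrich 0.6, deepTools 3.4.2, ChIPseeker 1.24.0 and the build mm10. Settings, peak thresholds and any shift for the transposase are not stated there. The score of each peak is the authors' own, as deposited, and was used to rank or filter peaks within a list. The deposited summit offset gave the summit, and other value columns were 0 throughout and not used. Wider or merged peaks lower the number of peaks and raise the chance of an overlap.

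Peaks were assigned to genes by RefSeq coordinates (GRCm38.p6), with Python 3.11.15, numpy 2.4.6, pandas 2.3.3, scipy 1.17.1 and matplotlib 3.10.9. The counting was tested on simulated peaks and against bedtools 2.31.1. A window was the gene body and 50 kb on each side, a shared peak overlapped the other list by at least 1 bp, and a gene-end peak lay within 1000 bp of either gene end. Starts came from the promoter windows, taking the outermost of a gene. Intervals are Wilson 95% intervals. They cover counting error only, and genes with overlapping windows count a peak more than 1 time. All 10 members are named, with, from each pathway list, up to 10 genes that were richer in 1 genotype or had a gene-end peak in 1 list. Neighbours are named where a genotype-only peak touches them. The members and lists were chosen with earlier results of these data known. The alternatives were other windows, overlaps, widths and score filters.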

Additional observations from a re-analysis of the deposited data

How the results depend on the processing

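The share of Irx5KO-only peaks among genotype-only peaks at the 10 loci (61.16%) turned to 0% when the upper 50% of each list was set against the whole other list (0 and 7 peaks). It rose to 71.15% within 10 kb, to 81.82% in the genes and 1 kb (18 and 4) and to 69.61% when bases covered by 1 list only were counted (51103 and 22312 bases, with 51.45% over all coding genes). It stayed between 53.62% and 65.22% under the 9 others: an overlap of at least 50%, 100 kb, peaks up to 2000 bp, the upper 50% of both lists, 10 to 50 kb, 50 to 100 kb, equal list lengths, merged regions and the 4 loci without another coding gene. Of these, the 10 to 50 and 50 to 100 kb ranges, equal lengths, merged regions, the 4 loci and the 1 kb window were chosen after seeing the data. The width limit of 2000 bp and the merged regions could not change the share. The widest genotype-only peaks at the 10 loci measured 960 bp (Irx5KO) and 470 bp (WT). In the merging, a peak without overlap stays a region of its own. The number of loci richer in Irx5KO, 2, became 0 in the upper 50% of either kind and in the genes and 1 kb, 1 from 10 to 50 kb, and 4 with an overlap of at least 50%. Within 10 kb it was again 2, but these were Junb and Klf4 in place of Fos and Fosl2. The background differs with the window. Of the 21887 coding genes, 2814 were richer in Irx5KO in the main window and 827 within 10 kb. From 10 to 50 kb there were 1519, and in the genes and 1 kb 488. For the overlap and score filters no background of richer loci is given. In the upper 50% of both lists 1 locus, Klf4 (0 and 5), was richer in WT. The median number of Irx5KO peaks per locus, 22.5, was 9.5 with a 10 kb and 35 with a 100 kb window, as the window's size sets it. Gene-end peaks were in both lists for 10 members with windows of 500 and 3000 bp, against 68.4% and 88.9% of coding genes. In the upper 50% of each list against the whole other list, the share over immediate early genes went from 60.61% to 45.65%. That over AP-1 partners went from 54.96% to 50% (19 and 19). Over all coding genes the share under this filter was 45.22%, near the first and below the second. The intervals of the 2 lists, 32.15% to 59.82% and 34.85% to 65.15%, both include it. Beyond what the settings themselves remove, the cause was not tested. No paired analysis was possible because each list pools both replicates of a genotype, and for the same reason no replicate could be left out. Depth per library is unknown from the lists, and most genotype-only peaks stand low in them.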
